A study of Rattus norvegicus with 46 samples.

Results

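Irradiated, RTA-408-treated rat skin on day 7 was compared with the same skin on day 3. These are 6 of the 46 arrays of the series, 3 per day, chosen by the day and treatment in the sample titles. They came from the same 3 Sprague-Dawley rats, numbers 324, 323 and 303, so each rat served as its own reference. All 23188 features of the array that are not controls were tested, out of 24834 in the table.

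The study followed 9 rats with repeated 5 mm punches of abdominal skin, taken untreated on day -10 and then on days -4, 1, 3, 7 and 14. The 6 untreated arrays were of rats 324, 323, 322, 321, 319 and 318. Rat 303 had none, so values of untreated skin are means over rats of all arms. The skin of both compared groups had received 40 Gy of 6 MeV electrons in 4 fractions of 10 Gy over 8 days. Both groups had been injected with RTA-408 and DMSO on days -7, -5, -3 and 0. The 3 irradiated vehicle rats (322, 321 and 320) received the same radiation and DMSO alone. The 3 unirradiated vehicle rats (319, 318 and 317) received DMSO with sham radiation. Their arrays were of rats 319 and 318 on day 3 and of rats 319 and 317 on day 7, so only rat 319 gave both days. The dose of RTA-408, the age of the rats and the hour of each biopsy are not given in the sources used here, and each arm is 3 animals.

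RTA-408 (omaveloxolone) is a synthetic triterpenoid that activates the transcription factor NRF2, which switches on genes for detoxifying and antioxidant enzymes. Irradiated skin loses dividing basal keratinocytes first, and the surviving epidermis later thickens and switches on wound genes while monocytes and lymphocytes enter the dermis. Type I interferons signal through STAT and IRF factors to antiviral genes, and interferon-gamma induces the MHC class II molecules with which cells present antigen to T cells.

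Values are log2 signals as the authors deposited them. The signals reached 19.9, above the 16 of a 16-bit scanner, so a difference need not equal the log2 of a fold change. Differences are given as log2 differences on this scale, with the model's SE. The 6 arrays correlated at 0.968 to 0.989 with each other, and none of the 71 spike-in control features was called between the days by limma (1 had an unadjusted p under 0.05). By the level of their labelling spike-ins the arrays of the series fell into 3 sets, and both arrays of each rat lay in the same set: rats 324 and 303 in one and rat 323 in another. Skin markers were bright, with Krt14, the keratin of basal keratinocytes, at 18.77, 18.70 and 18.87 on day 7 and 18.21, 18.29 and 18.30 on day 3. The punches also held muscle: the mean of 31 skeletal muscle genes was 13.11 to 14.61 on day 7 and 13.92 to 14.84 on day 3. In whole skin, a lower signal from fewer cells of a type and from less RNA per cell cannot be told apart. Array values below are in the order of rats 324, 323 and 303. Where no array of a group exceeded the median signal of its own 1153 negative-control features, that group is described as at the negative controls. Such a group has only a bound, so the difference is also given as at least or at most a value. A group with only some arrays at or below that median is given without a bound, so part of its difference may lie below that level. Isg15, Mx2, Ncf4 and Cd86 on day 3 were among such groups.

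The genes called higher on day 7 included 12 of 35 measured interferon-stimulated genes, 10 of 25 interferon-gamma and antigen presentation genes, 5 of 24 wound and stress keratinocyte genes, 4 of 34 T and NK cell genes and 3 of 31 monocyte and macrophage genes. Those called lower included 3 of 15 circadian clock genes, 1 of 37 NRF2 targets and 1 of 32 p53 targets. At an adjusted p under 0.05 (limma with rat as a block, Benjamini-Hochberg over all features), 181 features were called, which is 0.781% of those tested. Of these, 138 were higher on day 7 (0.595%) and 43 were lower (0.185%). All 181 moved the same way in all 3 rats, and for 135 of the higher and 42 of the lower features the arrays of the days did not overlap. Over all features, arrays that did not overlap were found for 9.56% higher and 8.68% lower. The median difference over all features was -0.01. For 30 of the higher features day 3, and for 10 of the lower features day 7, lay at the negative controls. A single gene symbol was available for 99 of the higher and 32 of the lower features. The 12 genes named below for the largest difference in each direction had to show both the same sign in all rats and no overlap. For those genes, neither trait is a separate result.

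The count of calls rested on rat 324 more than on the other rats: 6 features were called without it, 41 without rat 323 and 64 without rat 303. All 181 features kept the sign of their difference in each of the 18 alternatives run, where the alternative held the feature. As each had moved the same way in all 3 rats, leaving out a rat could not turn its sign. The kept sign is therefore no separate support for the calls. The 6 that kept their call without each rat in turn were Klk13, Cyp2f4, Ifit1, Gp2, Fcrl2 and a feature without a symbol. Fcrl2 was named here after its values were seen. The calls behind each gene group are given below with the rats on which they rested.

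**Figure D1:**
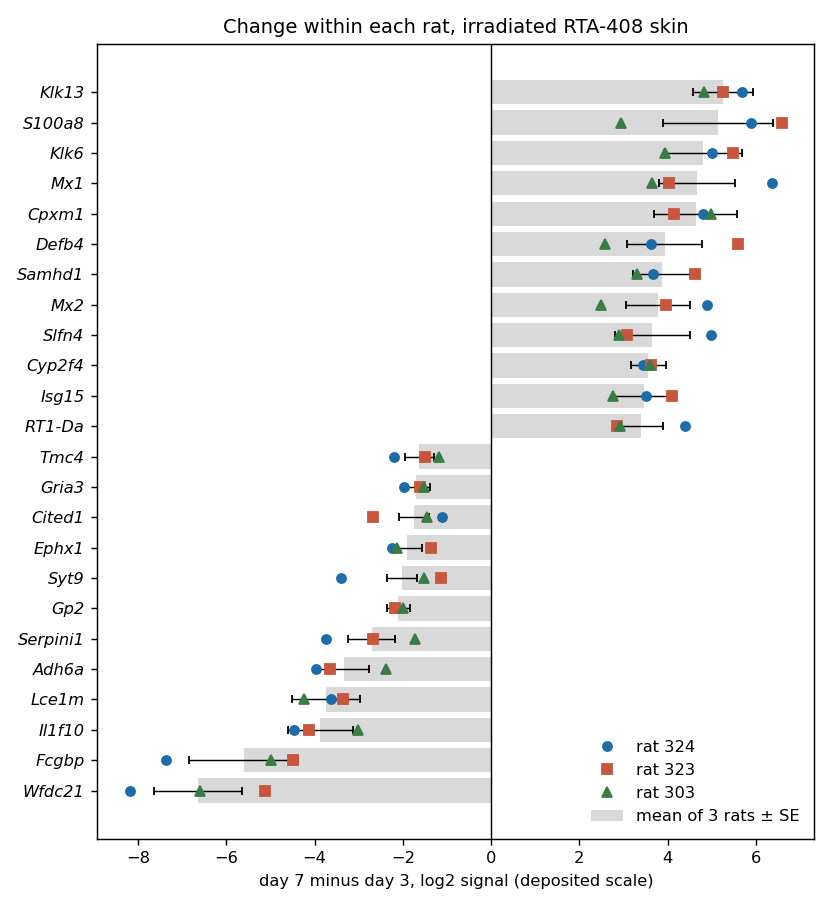
Difference between day 7 and day 3 (log2 signal, deposited scale) for the 12 called genes with the largest positive and the 12 with the largest negative difference in irradiated RTA-408 skin. Bars are means of 3 rats with the SE of the model and symbols are single rats. Bars of genes at the negative controls on 1 day are only bounded, as the text gives. For each gene all 3 rats lie on the same side of 0, which the choice of these genes required. The differences run from Klk13 at 5.26 to Wfdc21 at -6.64.

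Interferon-stimulated genes held more called members than any other list. Of 35 measured members, 12 were higher on day 7, none was lower and 23 did not pass, and the median difference of the list was 1.65. Mx1, a GTPase that blocks viral replication, gave 10.23, 8.98 and 9.48 on day 7 and 3.87, 4.95 and 5.84 on day 3. All 3 day 3 arrays lay at the negative controls, and the difference was 4.67 ± 0.86 (SE, n = 3 rats; adjusted p 0.00639 by limma), or at least 3.42. Isg15, a ubiquitin-like protein attached to other proteins in the interferon response, had 8.64, 8.76 and 9.08 on day 7 and 5.13, 4.65 and 6.33 on day 3, a difference of 3.46 ± 0.70 (adjusted p 0.0148). The day 7 arrays of Isg15 had an SD of 0.23, and each stood above every day 3 array. Samhd1, which degrades deoxynucleotides, rose by 3.87 ± 0.65 (adjusted p 0.00298), with 12.09, 13.31 and 12.71 on day 7 and 8.43, 8.68 and 9.40 on day 3. Mx2, a relative of Mx1, rose by 3.78 ± 0.72 (adjusted p 0.0082). Usp18, the protease that removes Isg15 and dampens interferon signalling, had 10.99, 10.61 and 10.75 on day 7 and 7.65, 7.21 and 7.66 on day 3 (difference 3.28 ± 0.55, adjusted p 0.00298). Slfn4, a Schlafen family gene that interferon induces in mouse myeloid cells and that is not on the list, rose by 3.66 ± 0.85 (adjusted p 0.0342).

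Ifit1, which binds foreign RNA, was the member with the steadiest call. It had 6.64, 7.88 and 6.92 on day 7 and 3.80, 3.80 and 5.23 on day 3, where all arrays lay at the negative controls. Its difference was 2.87 ± 0.40 (adjusted p 0.000496), or at least 1.01. Its means over the days of the RTA-408 arm were 3.44 on day -4, 4.05 on day 1, 4.28 on day 3, 7.15 on day 7 and 4.70 on day 14, against 4.33 in untreated skin. Mx1 likewise averaged 4.69, 4.51, 4.89, 9.56 and 7.38 over the same days, and Isg15 averaged 4.02, 4.63, 5.37, 8.83 and 6.26. Day 7 thus had the highest mean of all 5 days for these 3 genes. Unirradiated vehicle skin had 6.67 and 4.85 for Mx1 on day 7 and 4.12 and 4.05 on day 3. For Usp18 it had 8.64 and 8.38 on day 7 and 6.92 and 6.95 on day 3. For Ifit1 it had 5.97 and 4.40 on day 7 and 4.14 and 4.15 on day 3, all at the negative controls. In these genes both day 7 values of the unirradiated skin lay below every day 7 value of the RTA-408 rats. For Usp18 both also lay above both day 3 values, with only rat 319 measured on both days. Mx1 lay at the negative controls on day 3 and, in rat 317, on day 7, so the order of those values and of the Ifit1 values is not informative. Without rat 324, rat 323 or rat 303, the list held 1, 1 and 5 called members, with a median of 1.32, 1.47 and 1.61. Within the spike-in set of rats 324 and 303 no member was called and the median was 1.47.

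Upstream sequence was available for 8 of the 12 called members, and 5 of these held the interferon response motif (GAAA, any 2 bases, GAAA) on either strand within 250 bases upstream of the start. The motif was found in 16 of the 25 measured members with a sequence and in 3.29% of all 27457 promoters. A match is only a stretch of letters, and binding was not measured here. The stretches below, from RefSeq on the GRCr8 build, are shown 5′ to 3′ on the strand of the gene with the motif in capitals, because they belong to called members of the list. Irf7, the transcription factor that amplifies interferon production, Ifit3, a partner of Ifit1, and Oas1a, an oligoadenylate synthetase that senses double-stranded RNA, were picked after their values were seen. They lie at chr1:205800028-205800147 on the minus strand (Irf7), chr1:241527206-241527325 on the plus strand (Ifit3) and chr12:41330346-41330465 on the plus strand (Oas1a).
Irf7: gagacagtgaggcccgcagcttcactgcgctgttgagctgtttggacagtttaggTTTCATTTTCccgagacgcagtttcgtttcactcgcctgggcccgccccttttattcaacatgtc
Ifit3: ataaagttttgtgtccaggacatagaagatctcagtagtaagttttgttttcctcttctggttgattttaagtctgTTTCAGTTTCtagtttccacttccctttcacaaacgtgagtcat
Oas1a: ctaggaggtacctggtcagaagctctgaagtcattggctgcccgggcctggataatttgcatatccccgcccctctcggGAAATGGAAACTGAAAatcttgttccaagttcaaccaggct
In Irf7 and Ifit3 the motif reads on the opposite strand, and in Oas1a 2 matches overlap. Irf7 had 9.95, 8.62 and 9.64 on day 7 and 5.16, 5.91 and 6.99 on day 3. Ifit3 had 8.08, 8.01 and 7.67 on day 7 and 4.80, 5.01 and 5.80 on day 3. Oas1a had 9.78, 8.83 and 9.77 on day 7 and 6.90, 6.50 and 7.62 on day 3. In all of these genes the 3 day 7 arrays exceeded the 3 day 3 arrays, and the differences were 3.38 ± 0.71, 2.72 ± 0.61 and 2.45 ± 0.52 (adjusted p 0.0188, 0.0287 and 0.0188). Ifit3 lay at the negative controls on day 3, so its difference is at least 1.78.

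Of 25 measured genes of interferon-gamma signalling and antigen presentation, 10 were higher on day 7, none was lower and 15 did not pass, with a median difference of 1.37. RT1-Da, the alpha chain of a rat MHC class II molecule, had 15.65, 14.30 and 14.77 on day 7 and 11.25, 11.43 and 11.86 on day 3 (difference 3.39 ± 0.51, adjusted p 0.00121). Cd74, the invariant chain that escorts class II molecules, had 16.90, 15.78 and 16.18 on day 7 and 12.70, 13.38 and 13.27 on day 3 (difference 3.17 ± 0.48, adjusted p 0.00121). RT1-DMa, a chain of the molecule that loads peptides onto class II, had 12.09, 10.47 and 11.004 on day 7 and 8.40, 8.15 and 8.18 on day 3 (difference 2.95 ± 0.49, adjusted p 0.00258). All 3 genes were highest in rat 324 on day 7, and their arrays did not overlap between the days. Ciita, the master regulator of class II transcription, rose by 1.49 ± 0.36 (adjusted p 0.0434) with day 3 at the negative controls, which bounds the difference at 0.38 or more. RT1-DMb, RT1-Ba, RT1-Db1, Gbp2 and Socs1 were the other called members besides Cxcl10. RT1-Db1 lay at the negative controls on day 3 and close to them on day 7, and its bound does not exceed 0. Tap2 (-0.24), RT1-A1 (0.13), B2m (0.25) and Tap1 (0.45) were among the members that did not pass. Class II and oligoadenylate synthetase genes have close relatives in the genome, and how far a probe set reads a relative was not tested.

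Cxcl10, the chemokine that interferon-gamma induces and that draws T cells, had 9.41, 10.07 and 10.15 on day 7 and 6.57, 7.00 and 7.02 on day 3, a difference of 3.01 ± 0.52 (adjusted p 0.00354). Its mean was 7.76 on day 14 in the same rats, whereas RT1-Da and Cd74 still averaged 14.58 and 16.12 on day 14, beside day 7 means of 14.91 and 16.29. Ifng itself, the cytokine gene, lay at the negative controls on all 6 arrays. The calls of RT1-Da, Cd74 and RT1-DMa were lost without rat 324 and held without either other rat, and that of Cxcl10 was lost without any one of them. The list held 0 called members without rat 324, 4 without rat 323 and 5 without rat 303, with medians of 1.41, 1.61 and 1.28. Without the rat block 8 members were called.

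Class II promoters carry a conserved X box and Y box. Of the 8 called members with a sequence, 3 held the X box letters (AGNAAC, any 3 bases, TG; Cd74, RT1-Da and RT1-Db1) and 3 the Y box letters CTGATTGG (RT1-Ba, RT1-Da and RT1-Db1) on either strand within 250 bases upstream. Among the 22 measured members with a sequence, 3 held the X box and 6 the Y box letters. These letters occurred in 3.53% and 3.26% of all promoters. The stretches of RT1-Da (chr20:4515291-4515410), RT1-Ba (chr20:4576937-4577056) and Cd74 (chr18:56526956-56527075), all on the plus strand of GRCr8, are given from RefSeq with the matching letters in capitals. That of Cd74 spans 250 to 131 bases upstream of the start, further away than the others. The spacing of the boxes can be read in RT1-Da only.
RT1-Da: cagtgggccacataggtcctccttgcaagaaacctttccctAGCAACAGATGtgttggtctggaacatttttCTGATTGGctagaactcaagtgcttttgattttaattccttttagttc
RT1-Ba: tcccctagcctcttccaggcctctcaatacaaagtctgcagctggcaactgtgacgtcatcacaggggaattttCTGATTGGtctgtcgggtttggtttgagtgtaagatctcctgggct
Cd74: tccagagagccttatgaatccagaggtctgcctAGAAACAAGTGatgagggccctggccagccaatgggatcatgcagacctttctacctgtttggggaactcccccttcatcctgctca
RT1-Da holds both boxes, RT1-Ba only the Y box letters and Cd74 only the X box letters in these stretches. RT1-Ba had 7.88, 7.76 and 9.54 on day 7 and 6.00, 6.04 and 6.45 on day 3.

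**Figure D2:**
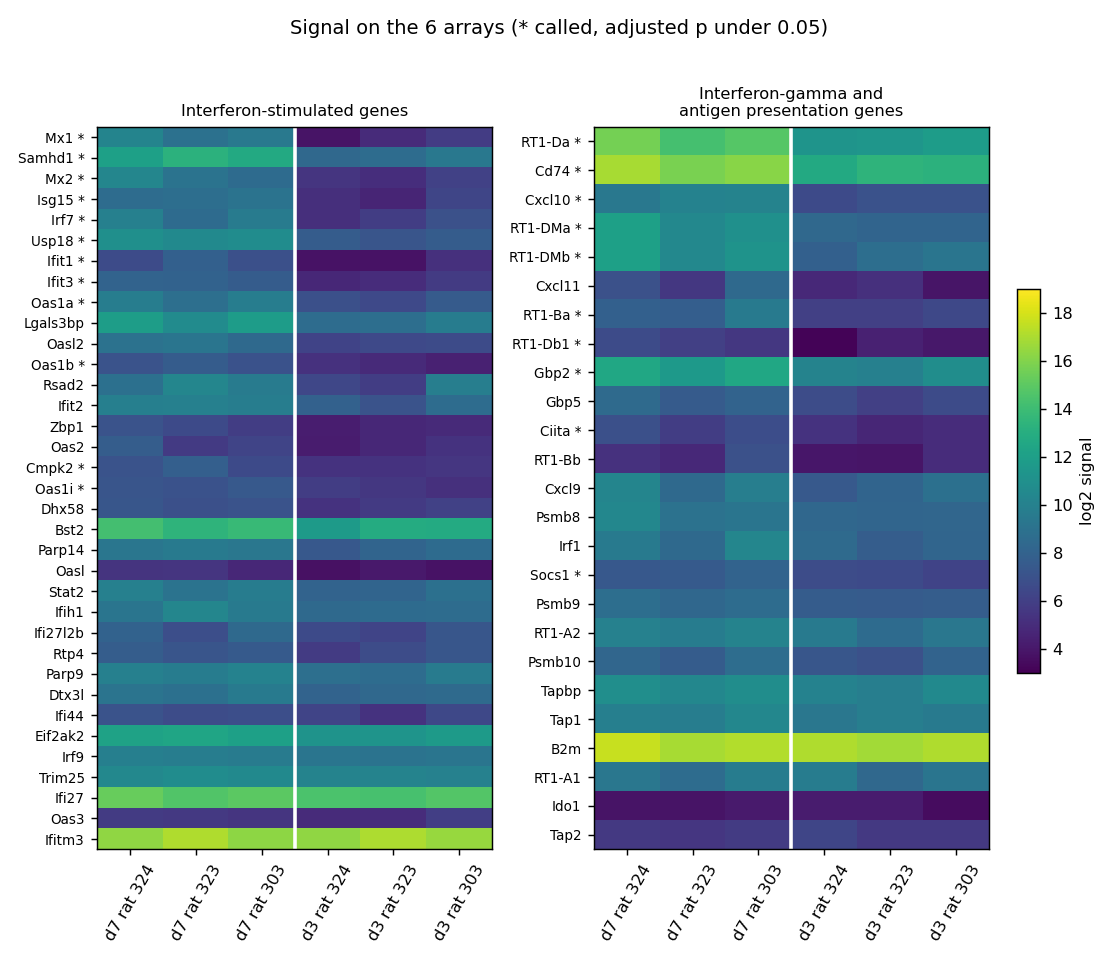
Log2 signal (colour) of the measured interferon-stimulated genes (left) and interferon-gamma and antigen presentation genes (right) on the 3 day 7 and the 3 day 3 arrays of irradiated RTA-408 skin, sorted by difference, with called genes starred. The called genes are brighter on day 7 in all 3 rats, while B2m and Ifitm3 are bright on all 6 arrays.

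Monocyte and macrophage genes had the highest median of all 41 lists, 1.76, although only 3 of 31 measured members were called, all higher. Ccr2, the receptor that brings monocytes into tissue, had 14.88, 13.67 and 14.23 on day 7 and 10.50, 10.62 and 11.91 on day 3 (difference 3.25 ± 0.67, adjusted p 0.0157). Mpeg1, a pore-forming protein of macrophages, had 11.45, 10.23 and 11.45 on day 7 and 7.69, 7.66 and 9.23 on day 3 (difference 2.85 ± 0.60, adjusted p 0.0175). Cd86, a co-stimulatory ligand of antigen-presenting cells, had 8.99, 7.36 and 8.34 on day 7 and 5.00, 5.81 and 6.68 on day 3 (difference 2.41 ± 0.43, adjusted p 0.00498). In each of the 3 genes the lowest day 7 array, that of rat 323, still lay above the highest day 3 array, that of rat 303. Of the 31 members, 27 had a difference above 0. The scavenger receptor Cd163 (2.30, adjusted p 0.346) and the receptor Csf1r (2.29, adjusted p 0.124) had differences of similar size that did not pass. Rat 303 already had the highest list mean on day 3, 10.20, against 8.98 in rat 324 and 9.36 in rat 323, while the day 7 means were 11.11, 11.21 and 10.58 in the same rats. Without rat 324, 323 or 303 the list held 0, 1 and 2 called members.

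Among the chemokines, Ccl7, a ligand of Ccr2, had 11.69, 12.20 and 12.25 on day 7 and 8.50, 9.28 and 9.47 on day 3 (difference 2.96 ± 0.71, adjusted p 0.0439, or 0.0657 without the rat block). Il36a, an epidermal cytokine of the interleukin-1 family, had 7.01, 9.23 and 8.59 on day 7 and 4.11, 5.39 and 5.67 on day 3 (difference 3.22 ± 0.68, adjusted p 0.0184), where day 3 lay at the negative controls and the bound is at least 2.14. These were the only called members of the list of 37 measured cytokines and chemokines, both higher, and the list median was 0.35. The called chemokines Cxcl10 and Ccl5 are not on this list and were counted in the antigen presentation and T cell lists. Il1b (1.56 ± 0.80, adjusted p 0.463) and Il6 (1.43 ± 0.75, or at least 0.50 with day 3 at the negative controls; adjusted p 0.473) did not pass. The calls of Ccl7 and Il36a were lost without any one of the 3 rats.

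Of 34 measured T and NK cell genes, 4 were higher on day 7 and none was lower, with a median of 0.44. Klrk1, the activating receptor NKG2D, had 10.22, 8.61 and 9.76 on day 7 and 6.23, 6.11 and 7.02 on day 3 (difference 3.08 ± 0.49, adjusted p 0.00155). Il7r, the interleukin-7 receptor of lymphocytes, had 8.81, 8.03 and 9.41 on day 7 and 6.13, 5.95 and 5.84 on day 3 (difference 2.77 ± 0.49, adjusted p 0.00438). For both genes every day 7 array lay above every day 3 array, and day 3 of Il7r lay at the negative controls, a bound of at least 2.61. Ccl5, a chemokine of activated T cells, rose by 1.69 ± 0.37 (adjusted p 0.0245; at least 0.09), and Cd2, an adhesion molecule of T and NK cells, rose by 1.34 ± 0.30 (adjusted p 0.0292). In 20 of the 34 genes all 6 arrays lay at the negative controls, among them the T cell receptor chains Cd3e, Cd3d and Cd3g and the granule protein genes Gzma and Gzmb. The call of Klrk1 was lost without rat 324 only, that of Il7r without rat 324 or 303, and those of Ccl5 and Cd2 without any one rat.

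Of 21 measured neutrophil genes, 2 were higher and none was lower, with a median of 0.69. S100a8, a subunit of calprotectin that neutrophils and stressed keratinocytes both make, had 12.78, 15.59 and 13.91 on day 7 and 6.90, 9.004 and 10.96 on day 3 (difference 5.14 ± 1.24, adjusted p 0.0434). Its partner S100a9 was not called, with a difference of 4.86 and an adjusted p of 0.117. Ncf4, a subunit of the phagocyte oxidase, had 8.26, 6.90 and 8.29 on day 7 and 4.37, 5.38 and 6.12 on day 3 (difference 2.52 ± 0.58, adjusted p 0.0334). The groups did not overlap in either called gene, and both calls were lost without any one rat. In 9 of the 21 genes all 6 arrays lay at the negative controls, including Camp, Ltf, Elane and Mmp8, which encode neutrophil granule proteins.

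Of 24 measured keratinocyte genes of wounding and stress, 5 were higher, none was lower and 19 did not pass, with a median of 0.95. Klk6, a secreted kallikrein protease, had 14.20, 14.38 and 15.60 on day 7 and 9.20, 8.89 and 11.66 on day 3 (difference 4.81 ± 0.88, adjusted p 0.00639). Klk13, a related protease that is not on the list, had the largest increase of the named genes, with 11.55, 12.90 and 13.27 on day 7 and 5.86, 7.65 and 8.43 on day 3 (difference 5.26 ± 0.67, adjusted p 0.000186). Both kallikreins were lowest on day 3 in rats 324 and 323 and highest in rat 303. Neither overlapped between the days, which the rule that named them required. Klk13 stood at 6.98 on day -4, 6.02 on day 1, 7.32 on day 3, 12.57 on day 7 and 11.42 on day 14, and untreated skin had 7.64. Klk6 averaged 8.48 on day 14. The 2 unirradiated vehicle biopsies of day 7 had 8.28 and 7.37 for Klk13, and those of day 3 had 7.49 and 9.16.

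The other called wound genes were Defb4, a beta-defensin (3.93 ± 0.85, adjusted p 0.0219), and the EGF receptor ligands Hbegf (2.35 ± 0.52, adjusted p 0.0272) and Ereg (2.04 ± 0.44, adjusted p 0.0238), together with S100a8. Hbegf had 10.17, 10.88 and 11.91 on day 7 and 7.61, 9.30 and 8.99 on day 3. Duox1, an oxidase that makes hydrogen peroxide at epithelial surfaces, rose by 1.94 ± 0.45 (adjusted p 0.0313). The lipid carrier Fabp5 of keratinocytes and sebaceous cells rose by 1.80 ± 0.41 (adjusted p 0.0287, or 0.0904 without the rat block), and Pgam1, a glycolytic enzyme, rose by 1.20 ± 0.26 (adjusted p 0.0241). The wound list held 0, 0 and 1 called members without rats 324, 323 and 303. None of the 21 measured genes on the suprabasal and cornified envelope list passed (median 0.10). The closest on the list were Cnfn (2.19, adjusted p 0.0674) and Klk7, another epidermal kallikrein (1.76, adjusted p 0.0798). Lce1m, a late cornified envelope gene that was called lower and is given below, is not on that list. Krt14 and Krt15 of the basal layer differed by 0.52 (adjusted p 0.435) and -1.84 (adjusted p 0.363), and none of the 9 measured basal genes passed (median -0.07).

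Cyp2f4, a cytochrome P450, had the smallest adjusted p of all features, 4.55e-05. It had 7.78, 8.91 and 9.04 on day 7 and 4.33, 5.28 and 5.43 on day 3, a difference of 3.56 ± 0.40. Day 3 lay at the negative controls, which bounds the difference at 2.44 or more. On day 14 the gene averaged 5.13. Cpxm1, a member of the carboxypeptidase family, had 14.60, 14.13 and 16.32 on day 7 and 9.80, 9.98 and 11.35 on day 3 (difference 4.64 ± 0.94, adjusted p 0.0141), a call that was lost without any one rat. Both genes were above their day 3 level in every rat without overlap, which the rule that named them required.

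The largest decrease was that of Wfdc21, a small secreted protein with a whey acidic protein domain. It had 6.51, 8.91 and 6.01 on day 7 and 14.70, 14.04 and 12.62 on day 3 (difference -6.64 ± 1.00, adjusted p 0.00121). All day 7 arrays lay far below the day 3 arrays, and the call was lost without rat 324 only. Unirradiated vehicle skin had 13.04 and 13.80 on day 7 and 13.11 and 11.39 on day 3. On day 14 the RTA-408 rats averaged 9.87, against 11.58 in untreated skin. Fcgbp, a mucin-like protein that binds IgG, had 5.69, 5.13 and 4.48 on day 7 and 13.05, 9.61 and 9.46 on day 3 (difference -5.61 ± 1.24, adjusted p 0.0252). Il1f10, the interleukin-1 family member IL-38, had 4.55, 4.96 and 5.09 on day 7 and 9.01, 9.09 and 8.10 on day 3 (difference -3.87 ± 0.73, adjusted p 0.00719). Both lay at the negative controls on day 7, so that the differences are at most -4.82 and -2.85. On day 14 Il1f10 averaged 8.81, beside a day 3 mean of 8.73.

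Lce1m, a late cornified envelope protein, had 8.16, 8.76 and 7.00 on day 7 and 11.78, 12.12 and 11.24 on day 3 (difference -3.74 ± 0.78, adjusted p 0.0171). Adh6a, an alcohol dehydrogenase, had 4.83, 5.47 and 5.53 on day 7 and 8.80, 9.13 and 7.90 on day 3 (difference -3.33 ± 0.56, adjusted p 0.00298; at most -2.72). The groups of both genes were far apart. The remaining genes of the 12 with the largest decrease were Serpini1, a serine protease inhibitor (-2.71 ± 0.52), Gp2 (-2.11 ± 0.26), Syt9, a synaptotagmin (-2.02 ± 0.35), Ephx1 (-1.92 ± 0.35), Cited1, a transcriptional coregulator (-1.75 ± 0.33), Gria3, a glutamate receptor subunit (-1.70 ± 0.32), and Tmc4, a transmembrane channel-like protein (-1.63 ± 0.32), with adjusted p between 0.000128 and 0.0116. Serpini1, Gp2, Syt9 and Cited1 lay at the negative controls on day 7, so that their differences are at most -1.12, -0.38, -0.45 and -0.34. Of the 12 genes, Gp2 was called whichever rat was left out, Wfdc21 and Syt9 lost it without rat 324 only, and Fcgbp, Lce1m and Gria3 lost it without any one rat.

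Gp2, a membrane glycoprotein best known from pancreatic granules and intestinal M cells, showed a signal on a single day. It had 3.72, 4.18 and 4.58 on day 7 and 5.88, 6.35 and 6.58 on day 3 (adjusted p 0.000128). Its means in the RTA-408 arm were 4.27 on day -4, 4.01 on day 1, 6.27 on day 3, 4.16 on day 7 and 3.73 on day 14. The day 3 values were close to the negative-control medians of the same arrays, 6.18, 6.18 and 6.05, so the gene was at most dim on day 3, and the bound on the difference is -0.38.

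Circadian clock genes had the lowest median of the 41 lists, -0.77. Of 15 measured members, 3 were lower on day 7, none was higher and 12 did not pass. Dbp, a clock output transcription factor, had 11.40, 11.88 and 11.65 on day 7 and 13.32, 13.28 and 12.95 on day 3 (difference -1.54 ± 0.31, adjusted p 0.013). The clock repressors Per1 (-1.42 ± 0.33, adjusted p 0.0319) and Per3 (-1.38 ± 0.31, adjusted p 0.0299) also fell. Per1 had 8.71, 9.08 and 8.84 on day 7 and 10.61, 10.02 and 10.25 on day 3. In these 3 genes the arrays did not overlap, and each call was lost without any one rat. Without the rat block Dbp and Per1 did not pass (adjusted p 0.11 and 0.108). Dbp had averaged 14.13 on day -4 and 14.51 on day 1, and reached 9.91 on day 14, against 9.74 in untreated skin. Unirradiated vehicle skin had Per1 values of 9.40 and 9.79 on day 7 and 10.50 and 10.69 on day 3. For Dbp it had 11.84 and 12.27 on day 7 and 13.00 and 11.14 on day 3, which overlap. The E-box letters CACGTG, through which clock factors act, were searched only within 250 bases upstream of the start. There they were found in none of the 3 called members, in 3 of the 14 measured members with a sequence and in 5.79% of all promoters. Sites elsewhere in these genes were not searched. The activators Clock (0.35, adjusted p 0.728) and Bmal1 (0.20, adjusted p 0.85) did not pass.

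**Figure D3:**
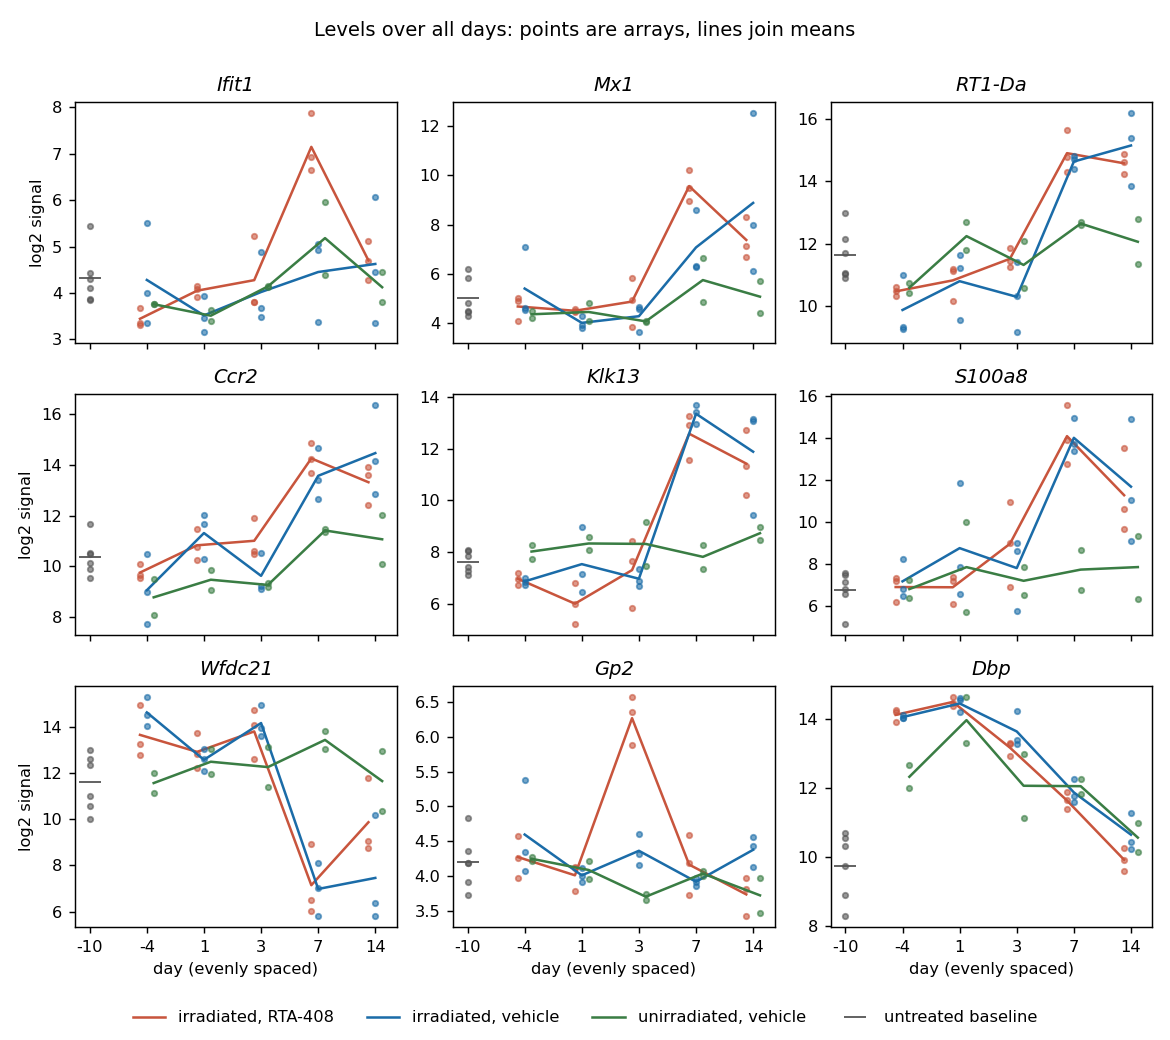
Log2 signal of 9 named genes on each day of the study (days evenly spaced) in irradiated RTA-408, irradiated vehicle and unirradiated vehicle skin and in untreated skin of day -10; points are arrays and lines join group means. Klk13 and S100a8 stand high on day 7 in both irradiated arms, Wfdc21 stands low there, Ifit1 is highest on day 7 in the RTA-408 arm, and Gp2 is highest on day 3 in that arm.

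NRF2 target genes, which RTA-408 is known to induce, mostly did not pass between the days. Of 37 measured targets, 1 was lower on day 7, none was higher and 36 did not pass, with a median of -0.12. The called gene was Ephx1, the microsomal epoxide hydrolase, which had 11.13, 10.90 and 10.73 on day 7 and 13.38, 12.27 and 12.86 on day 3 (adjusted p 0.00639; lost without rat 324 or 303). In the RTA-408 arm its mean was 13.79 on day -4, 14.02 on day 1 and 12.84 on day 3. It was 10.92 on day 7 and 9.85 on day 14, against 8.90 in untreated skin. Ephx1 fell in the irradiated vehicle rats too, with a change of -2.51 from day 3 to day 7, beside -1.92 with RTA-408. The difference between these changes was 0.59 ± 0.50 and was not called. With vehicle, 4 NRF2 targets were called higher and 2 lower, and the list median was 0.11. The quinone reductase Nqo1 had 12.18, 12.001 and 13.01 on day 7 and 10.80, 12.40 and 12.44 on day 3, which overlap (difference 0.52 ± 0.46, adjusted p 0.75). The haem oxygenase Hmox1 (1.45 ± 0.52, adjusted p 0.228), the glutathione synthesis genes Gclc (-0.10 ± 0.48) and Gclm (-0.26 ± 0.35), the thioredoxin reductase Txnrd1 (-0.34 ± 0.40), the sulfiredoxin Srxn1 (0.61 ± 0.41) and the glutathione transferase Gstm1 (-0.27 ± 0.40) did not pass either. Aldh3a1 differed by -1.55 ± 0.68 and also did not pass (adjusted p 0.352 by limma).

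Of 32 measured p53 targets, 1 was lower on day 7 and none was higher, with a median of -0.11. Tp53inp1, which promotes p53-dependent cell death, had 12.99, 12.98 and 12.73 on day 7 and 14.47, 13.78 and 14.08 on day 3 (difference -1.21 ± 0.30, adjusted p 0.0479; lost without any one rat). The cell cycle inhibitor Cdkn1a had 14.99, 14.07 and 14.66 on day 7 and 14.90, 14.54 and 14.09 on day 3, and the p53 ligase Mdm2 differed by -0.64 ± 0.30 (adjusted p 0.396). All 34 measured mitosis genes had a difference above 0, with a median of 1.13, but none was called. The closest were Cdc20, an activator of the anaphase-promoting complex (1.48 ± 0.39, adjusted p 0.0794), and the kinase Aurka (0.98 ± 0.26, adjusted p 0.08), and Mki67 had 12.67, 12.51 and 12.18 on day 7 and 11.65, 10.85 and 10.47 on day 3 (adjusted p 0.456).

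Among markers of the other cell types in a punch, no member of the skeletal muscle (31 measured, median -0.33), adipocyte (18, -0.54), red blood cell (10, 0.08), hair shaft keratin (20, -0.46), fibroblast and collagen (27, 0.23) or endothelium and pericyte (24, -0.01) lists was called. The mean of the red blood cell genes was 10.96, 10.38 and 9.85 on day 7 and 9.65, 9.63 and 11.92 on day 3, so rat 303 moved opposite to the other rats. The mean of the hair shaft keratins was 5.75, 5.87 and 5.58 on day 7 and 7.77, 5.87 and 5.86 on day 3, with rat 324 highest on day 3. The muscle gene Myh2 had 9.21, 12.61 and 14.60 on day 7 and 15.72, 15.46 and 13.58 on day 3, with rat 324 lowest on day 7. None of 19 measured muscle regeneration genes was called (median 0.39). Their member Ncam1 had 14.76, 7.96 and 11.89 on day 7 and 11.59, 8.19 and 9.90 on day 3, highest in rat 324. The part of these shifts in the calls that rest on rat 324 was not tested. The collagen gene Col1a1 had 19.03, 18.98 and 18.50 on day 7 and 19.13, 18.55 and 18.84 on day 3. The matrix protease Mmp3 differed by 4.27 ± 1.11, with 13.23, 14.14 and 14.85 on day 7 and 8.95, 10.16 and 10.30 on day 3, and did not pass (adjusted p 0.07).

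**Figure D4:**
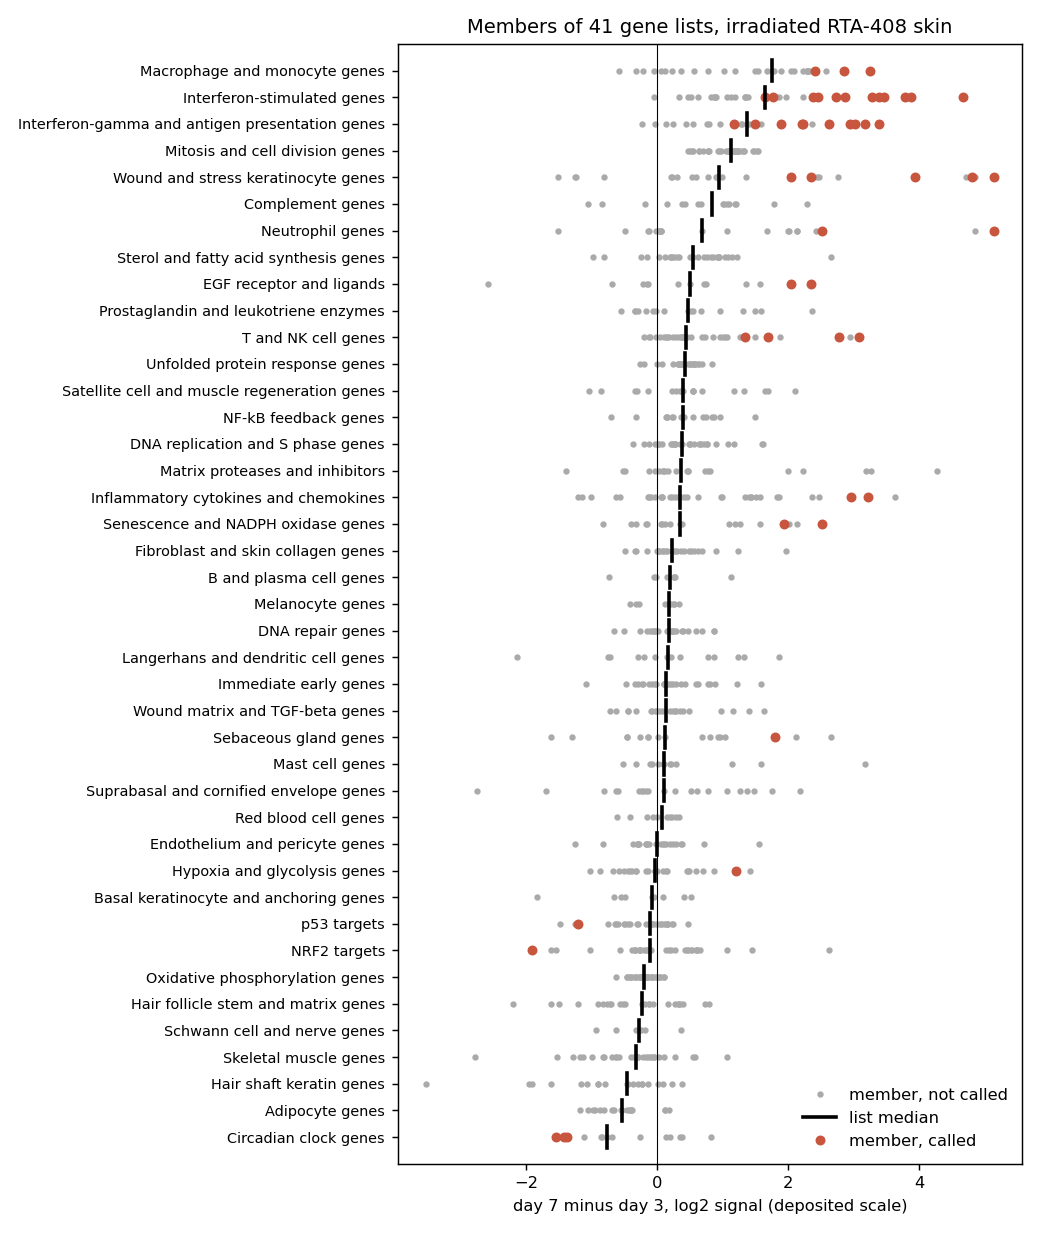
Difference between day 7 and day 3 (log2 signal, deposited scale) in irradiated RTA-408 skin for each measured member of 41 gene lists, sorted by list median (black bars). Called members (red) stand at the right in the interferon, antigen presentation, macrophage, lymphocyte and wound lists and at the left in the clock, NRF2 and p53 lists; the list medians run from 1.76 for macrophage genes to -0.77 for clock genes.

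The same interval in the irradiated vehicle rats asks whether the change between the days went along with RTA-408. In the vehicle arm 524 features were higher on day 7 (2.26%) and 264 were lower (1.14%). Of the 181 features called in the RTA-408 arm, 137 were also called in the vehicle arm in the same direction, which is 75.7% of 181 and 17.4% of the 788 called with vehicle, and 179 had the same sign there. The difference between the arms in the change from day 3 to day 7 was called for no feature (0%; limma, smallest adjusted p 0.609), while 610 features had an unadjusted p under 0.05 and 1159 would be the number from chance. Klk13 changed by 5.26 with RTA-408 and 6.36 with vehicle (difference of the changes -1.10, 95% interval -3.06 to 0.86), and Wfdc21 by -6.64 and -7.17. Without 1 vehicle array, that of rat 322 on day 7, the smallest adjusted p of the difference was 0.0893.

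By unadjusted p, Ifit1 and Gp2 were among the genes nearest to a difference between the arms. Ifit1 changed by 2.87 with RTA-408 and by 0.43 with vehicle, a difference of 2.44 (95% interval 1.29 to 3.59, unadjusted p 0.000184, adjusted p 0.609). Its vehicle arrays gave 4.93, 5.05 and 3.37 on day 7 and 3.68, 4.89 and 3.49 on day 3 in rats 322, 321 and 320. Gp2 changed by -2.11 with RTA-408 and by -0.45 with vehicle, a difference of -1.66 (95% interval -2.41 to -0.91, unadjusted p 0.000104, adjusted p 0.609), with vehicle arrays of 3.92, 3.86 and 3.98 on day 7 and 4.32, 4.16 and 4.60 on day 3. Cited1 changed by -1.75 with RTA-408 and by -0.24 with vehicle (difference -1.51, unadjusted p 0.00334, adjusted p 1). All 6 vehicle arrays lay at the negative controls for Ifit1, Gp2 and Cited1, so the change with vehicle and its difference from the change with RTA-408 were not measured for these genes. The RTA-408 changes are bounded at 1.01 or more for Ifit1 and at most -0.38 for Gp2 and -0.34 for Cited1. The other genes ranked with them were Meis3 (1.44), Minar2 (1.22), H1f6 (1.07), Or8b1b (-1.72), Smyd5 (-1.15) and Rab19 (-1.10), and in the RTA-408 arm all of these but Smyd5 lay at the negative controls on both days.

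Interferon-stimulated genes had a median difference of 1.65 with RTA-408 and 0.94 with vehicle, where 3 of 35 members were called higher, and the median of the differences between the arms was 0.42 with none called. Usp18 changed by 3.28 with RTA-408 and 1.53 with vehicle (difference 1.75, 95% interval 0.15 to 3.34), and Cxcl10 by 3.01 and 1.43 (difference 1.58, 95% interval 0.07 to 3.09), with adjusted p of 1 in both. Antigen presentation genes had medians of 1.37 with RTA-408 and 1.43 with vehicle, and macrophage genes had medians of 1.76 and 2.54, with 3 and 18 members called. RT1-Da changed by 3.39 with RTA-408 and 4.35 with vehicle (difference -0.95, adjusted p 1). Over the 120 named genes, the unadjusted 95% interval of the difference between the arms reached a median of 1.38 to either side. A call after adjustment over all features needs a larger difference than this interval, and the 1.75 of Usp18 did not pass. Differences of this size were thus mostly not detectable with 3 rats in each arm.

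**Figure D5:**
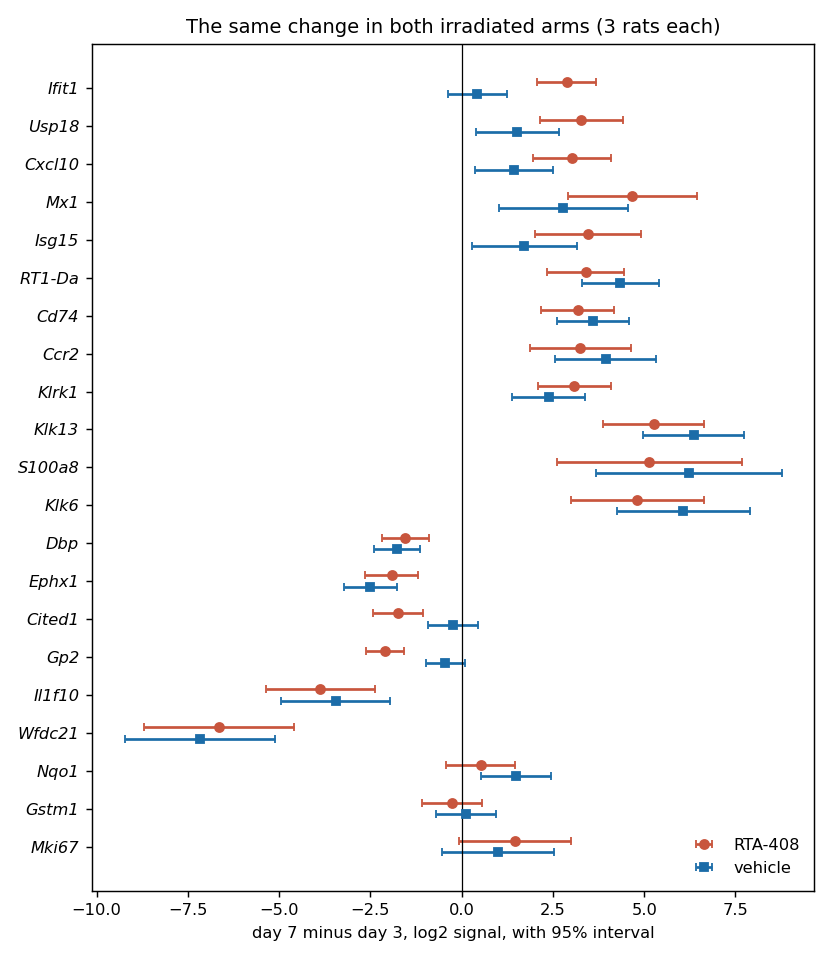
Difference between day 7 and day 3 (log2 signal, deposited scale) with its 95% interval for 21 genes in irradiated RTA-408 skin (red circles) and irradiated vehicle skin (blue squares), 3 rats each. The intervals of both arms overlap for most genes, and those of Ifit1 (2.87 with RTA-408, 0.43 with vehicle), Gp2 (-2.11 and -0.45) and Cited1 (-1.75 and -0.24) do not. All vehicle arrays of these 3 genes lay at the negative controls, so their plotted intervals do not measure a difference, and no difference between the arms passed over all features.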

How the data were processed

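The log2 signals were used as the authors deposited them, 1 value per feature and array, and no source used here gives the normalization behind them. Per the labels' protocols, 100 ng of RNA per punch was labelled with the GeneChip WT Plus kit and hybridized to rat Clariom S arrays. The 1646 control features were left out. The platform annotation gave 15049 features a gene symbol, all found in RefSeq by gene ID, and gave 8139 none.

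The 46 arrays entered 1 linear model (limma 3.58.1, R 4.3.3) with a mean for each of 16 groups and rat as a fixed block, leaving 22 residual degrees of freedom and 26.0 after moderation. The Benjamini-Hochberg adjustment covered all 23188 features, and features were called at an adjusted p under 0.05. The titles give the same rat on both days, and same-rat arrays deviated together from their group means (r 0.276, 0.284 and 0.194). Over all 46 arrays, with rat as a random block, the correlation within rats was only 0.0067. The scripts were tested on simulated data. The simulated spread was capped at the median over features, so that test does not cover the noisier features. SD refers to the arrays of a group, and SE to the model.

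The genes named were the 12 called features with the largest positive and the 12 with the largest negative difference (1 symbol, no overlap, same sign in all rats), up to 4 called members of each list or, in a list without calls, the 2 with the smallest p, the 4 in each direction nearest to a difference between the arms, and a fixed panel of stress, cytokine and skin genes. The groups compared, the 41 gene lists (921 of 1114 entries measured) and the rule were chosen with earlier results of these data known. Lists are described by counts and medians, without a test. Promoter motifs were searched in RefSeq sequences with Python 3.11.15. Alternatives were quantile normalization, leaving out the dimmest 25% of features, other treatments of rat, fewer arrays, array weights, the spike-in sets as a block or alone, and leaving out rats and arrays.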

Additional observations from a re-analysis of the deposited data

Results flagged for a closer look

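In untreated skin of day -10, 1 of the 6 baseline arrays had 9.17 for Samhd1, apart from the other 5, of which the nearest had 8.47. The gap was 0.816 of the whole range of the 6 arrays. It lies below the day 7 values of the RTA-408 rats, 12.09 to 13.31, and within their day 3 values, 8.43 to 9.40. The threshold for such a gap is passed by chance in about 1 of 20 groups compared in this way. The 12 genes with the largest positive and the 12 with the largest negative difference were checked, and only Samhd1 passed it. A single such gap is therefore not unusual.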

How the results depend on the processing

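The 181 calls of the RTA-408 arm became 187 after quantile normalization, 203 without the dimmest features, 171 with no replicate block (147 of them shared), 176 where rat was a random block and 195 where spike-in set was a further block. They became 663 with the replicate block and the compared arrays alone, 666 with array weights, 111 with irradiated arrays only and 3 within the spike-in set of rats 324 and 303, which has fewer samples. Leaving out rats or arrays gave 6 to 167; a day 3 array left out gave 31 (rat 324), 42 (323) or 160 (303), and a day 7 array 32, 167 or 47. The 788 calls of the vehicle arm became 1344 with array weights and 56 to 659 with rats or arrays left out. No difference between the arms was called in any alternative, and its smallest adjusted p was 0.0893, without the day 7 array of vehicle rat 322. A comparison within spike-in sets was not run for the vehicle arm, where no set held over 1 rat on both days. Without the replicate block, Dbp, Per1, Fabp5 and Ccl7 lost their call among the genes named by the rule. The direction turned in uncalled genes: Col1a1 (0.035 after quantile normalization, 0.013 with array weights, -0.22 to 0.24 over leave-outs), Gclc (0.011 with array weights, -0.44 to 0.33), and over leave-outs Ahsp (-1.53 to 0.35), Epb42 (-0.89 to 0.29), Cdkn1a (-0.19 to 0.35) and Gstm1 (-0.63 to 0.017). The cause was not tested. Of the list medians recomputed, 226 stayed within the spread of the rats and 20 moved beyond it. Signals near the negative controls limit what can be measured, and such differences are bounds.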
